A study of Mus musculus with 18 samples.

Results

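The genes described here are 7 genes switched on as cortical neurons leave the cell cycle and grow processes: Syt1, Ina, Hpca, Nefl, Nefm, Dcx and Stmn2. Their probes were found in the deposited table by the gene symbol of the array's annotation, and each symbol had 1 probe, so the set is 7 of 21998 probes. All 7 passed the filter on missing values and were tested among 18525 features. Hpca, Ina, Syt1, Nefm, Dcx and Stmn2 had a value on all 18 arrays, and Nefl on 14.

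The tissue was neocortex of mouse embryos of the MF1 stock at E13.5, in mid-gestation, with no mutation, transgene or treatment named in the labels. It was divided along the front to back axis into rostral, middle and caudal parts, and 3 RNA pools of each part (R1 to R3, M1 to M3, C1 to C3) were set against pools of the other parts, with 1 pool per dye on every array. Tissue of 4 embryos went into the 9 pools, and the labels do not say whether a pool stands for an embryo of its own, so the p-values speak of the spread among pools alone, and that spread could be technical. Every pool was measured 4 times, 2 times per dye, and each pair of regions met on 6 arrays. Every value is a ratio of 2 pools: it gives no level, so levels of different genes cannot be set against each other, and whether a marker of the tissue is present cannot be read. In bulk tissue, fewer cells of a type and less RNA per cell cannot be told apart. Ratios were read as Cy5 over Cy3. This direction is likely rather than settled, and rests on the order of the channels and on textbook regional genes: in rostral against caudal, the caudal gene Nr2f1 was at -1.02 on each of 2 probes and Emx2 at -0.25, while the rostral genes Pax6 (0.31 and 0.32) and Etv1 (0.80) were above 0, all log2 differences.

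A newborn cortical neuron first assembles a migrating and then a growing cell. Dcx encodes doublecortin, which binds and stabilises microtubules in migrating neurons, and Stmn2 encodes a membrane-bound stathmin of growth cones that binds tubulin. Ina (alpha-internexin), Nefl and Nefm (the light and medium neurofilament chains) are subunits of the neuronal intermediate filaments that fill the axon. Among these, alpha-internexin is the one made early. Syt1 (synaptotagmin 1) is the calcium sensor of synaptic vesicle release, and Hpca (hippocalcin) is a neuronal calcium sensor with a myristoyl switch. In the embryonic neocortex neurons are born earlier at the rostrolateral than at the caudomedial end, so genes of this kind are a common readout of regional differences in timing.

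Promoters in the RefSeq tables (build GRCm38.p6) were found for 4 of the 7 genes, Hpca, Ina, Syt1 and Dcx. They are shown because Hpca and Ina shared a graded pattern, Syt1 ran the opposite way and Dcx showed no order of the regions. Each line gives the 250 bases before the most upstream start listed among the promoters, 5′ to 3′ on the gene's strand. Every E-box (CANNTG, the core bound by bHLH factors) is in capitals.
Hpca: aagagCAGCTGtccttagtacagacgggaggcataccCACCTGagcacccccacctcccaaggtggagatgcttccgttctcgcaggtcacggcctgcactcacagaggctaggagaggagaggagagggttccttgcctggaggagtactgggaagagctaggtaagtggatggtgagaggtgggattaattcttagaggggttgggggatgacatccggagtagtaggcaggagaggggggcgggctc
Ina: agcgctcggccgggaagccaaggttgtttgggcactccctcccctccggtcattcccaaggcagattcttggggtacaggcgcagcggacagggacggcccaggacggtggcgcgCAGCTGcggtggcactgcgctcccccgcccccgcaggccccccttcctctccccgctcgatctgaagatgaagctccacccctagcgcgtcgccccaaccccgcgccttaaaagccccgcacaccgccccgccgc
Syt1: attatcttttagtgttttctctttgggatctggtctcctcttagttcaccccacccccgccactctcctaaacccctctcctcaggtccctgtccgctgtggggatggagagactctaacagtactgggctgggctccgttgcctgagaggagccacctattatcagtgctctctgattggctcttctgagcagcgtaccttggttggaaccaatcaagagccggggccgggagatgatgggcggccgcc
Dcx: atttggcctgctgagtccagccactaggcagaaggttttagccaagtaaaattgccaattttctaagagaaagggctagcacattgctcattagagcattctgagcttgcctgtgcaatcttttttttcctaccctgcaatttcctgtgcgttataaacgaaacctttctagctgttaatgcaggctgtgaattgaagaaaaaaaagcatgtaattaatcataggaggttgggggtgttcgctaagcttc
The windows lie at chr4:129121748-129121997 (minus strand) for Hpca, chr19:47014431-47014680 (plus strand) for Ina, chr10:109010976-109011225 (minus strand) for Syt1 and chrX:143933220-143933469 (minus strand) for Dcx. The listed genes themselves reach to 129125919 for Hpca, 143933396 for Dcx and 109010980 for Syt1. The Hpca window therefore lies wholly inside the gene, the Dcx window mostly inside it, and the Syt1 window overlaps its gene by a few bases. The Hpca window held 2 E-boxes, the Ina window 1, and the Syt1 and Dcx windows 0. An E-box was present in 66.2% of all 32851 promoter windows of this length, so holding one is common. Hpca, Syt1 and Dcx are listed with other starts further down: the 2 other Hpca windows held 0 and 4 E-boxes, the other Syt1 window 3 and the other Dcx window 0. All motifs were searched on both strands. The GC box GGGCGG occurred 2 times in the Ina window, 1 time each in the Hpca and Syt1 windows and 0 times in that of Dcx, against a presence in 32.7% of all windows. The Dcx window alone among the 4 shown held TATAAA (12.4% of all windows), and CCAAT (33.8% of all windows) was found 2 times for Syt1 and 1 time for Dcx. GC content was 70.8% for Ina, 58.8% for Hpca, 56.4% for Syt1 and 41.6% for Dcx, around a median of 52.4% over all windows. These matches describe the letters in the windows and show no binding.

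Hpca and Ina were lowest in the rostral pools, between in the middle pools and highest in the caudal pools, and Syt1 was higher in the rostral pools than in both others. None of the 3 passed after adjustment over all features. Dcx, Stmn2, Nefm and Nefl showed no separation of any pair of regions. Pool values below are log2 ratios relative to the mean of the 9 pools, and regions are compared by limma on the 9 pool values, with Benjamini-Hochberg adjustment over the 18525 features and two-sided p-values.

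**Figure D1:**
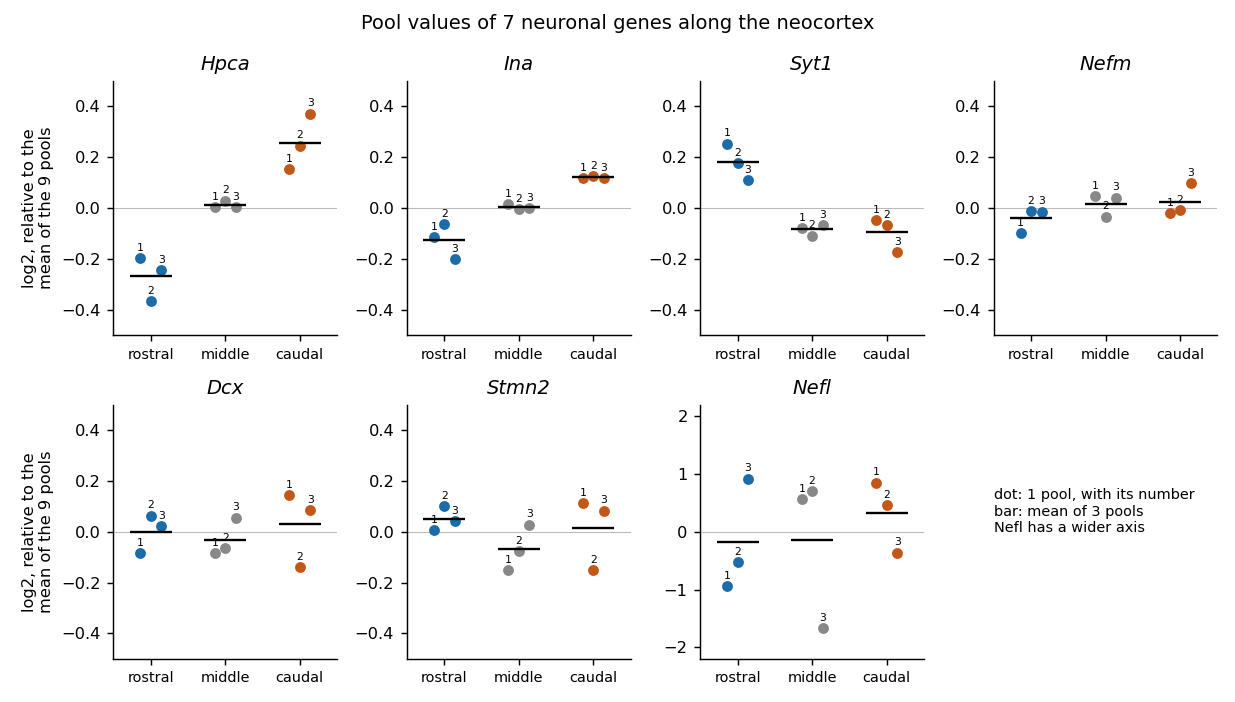
Pool values of the 7 genes (y axis, log2 relative to the mean of the 9 pools) by region (x axis), with a numbered point for each of the 3 pools and a bar at their mean. Hpca and Ina step up from rostral to caudal without overlap, Syt1 is above 0.1 in each rostral pool and below 0 in the other 6 pools, and Nefl, on its own scale, scatters from -1.67 to 0.92.

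Of the 7 genes, Hpca, the neuronal calcium sensor, had the largest rostral to caudal difference relative to its error. Its values were -0.20, -0.37 and -0.24 in the rostral pools, 0.00, 0.03 and 0.00 in the middle pools, and 0.15, 0.25 and 0.37 in the caudal pools. Every rostral pool lay below every middle pool and every middle pool below every caudal pool. The region means were -0.27 ± 0.09, 0.01 ± 0.01 and 0.26 ± 0.11 (SD, n = 3 pools each). Rostral against caudal the log2 difference was -0.53 ± 0.07 (SE; 95% interval -0.69 to -0.36), 1.44-fold higher caudally, with an unadjusted p of 0.00014 and an adjusted p of 0.0722, both from limma. By p it stood 36th among all features. The rostral to middle difference, -0.28 (limma adjusted p = 0.647), and the middle to caudal difference, -0.24 (limma adjusted p = 0.694), made up that difference in steps of similar size. On the 6 arrays that carried a rostral and a caudal pool together, with the gene's dye effect removed, the rostral over caudal ratio of Hpca was below 0 on 6 of 6, from -0.85 through a median of -0.61 to -0.41. It was below 0 on 6 of 6 arrays for middle over caudal, from -0.32 to -0.05, but on 5 of 6 for rostral over middle, from -0.46 to 0.15. All these arrays also went into the pool values and the dye effect, here and for the genes below. Counts of arrays are therefore repeat measures of the same pools and no further evidence. The share of all features with 1 sign on 6 of 6 arrays is not given.

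Ina, the early intermediate filament subunit, followed the same order with smaller steps. It measured -0.11, -0.06 and -0.20 in the rostral pools, 0.02, -0.0041 and 0.00 in the middle pools and 0.12 in each caudal pool. The groups again did not overlap for any pair of regions. Region means were -0.13 ± 0.07, 0.00 ± 0.01 and 0.12 ± 0.00 (SD, n = 3). Rostral against caudal gave -0.25 ± 0.05 (SE; 95% interval -0.36 to -0.13), which is 1.19-fold higher caudally, with an limma adjusted p of 0.188 (unadjusted 0.00151). Rostral against middle gave -0.13 (limma adjusted p = 0.929) and middle against caudal -0.12 (limma adjusted p = 0.995). All 6 arrays joining rostral with caudal pools put Ina below 0, within the narrow range -0.33 to -0.23, and all 6 joining middle with caudal pools did so too, from -0.12 to -0.05. For rostral over middle 5 of 6 arrays put Ina below 0 and 1 above, from -0.26 to 0.05. How the gradient divides at the middle pools depends on the centring of the arrays on their medians. Without it the rostral to middle and the middle to caudal steps were -0.03 and -0.29 for Ina, and -0.18 and -0.42 for Hpca, all still below 0.

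Syt1, the vesicle calcium sensor, ran against these 2 genes and separated the rostral pools from the rest. It was 0.25, 0.18 and 0.11 in the rostral pools, -0.08, -0.11 and -0.07 in the middle pools and -0.05, -0.07 and -0.17 in the caudal pools. Rostral pools lay above all 6 others, while middle and caudal pools overlapped. Rostral against caudal the difference was 0.28 ± 0.06 (SE; 95% interval 0.14 to 0.41), 1.21-fold higher rostrally, with an limma adjusted p of 0.201 (unadjusted 0.00197). Rostral against middle was almost as large at 0.26 (limma adjusted p = 0.593), and middle against caudal was 0.01 with a 95% interval of -0.13 to 0.15. Without centring these were 0.37 and -0.16, so the sign of the latter depends on it. Syt1 was above 0 on 6 of 6 arrays joining rostral and caudal pools, from 0.03 to 0.45, and on 6 of 6 joining rostral and middle pools, from 0.18 to 0.40.

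**Figure D2:**
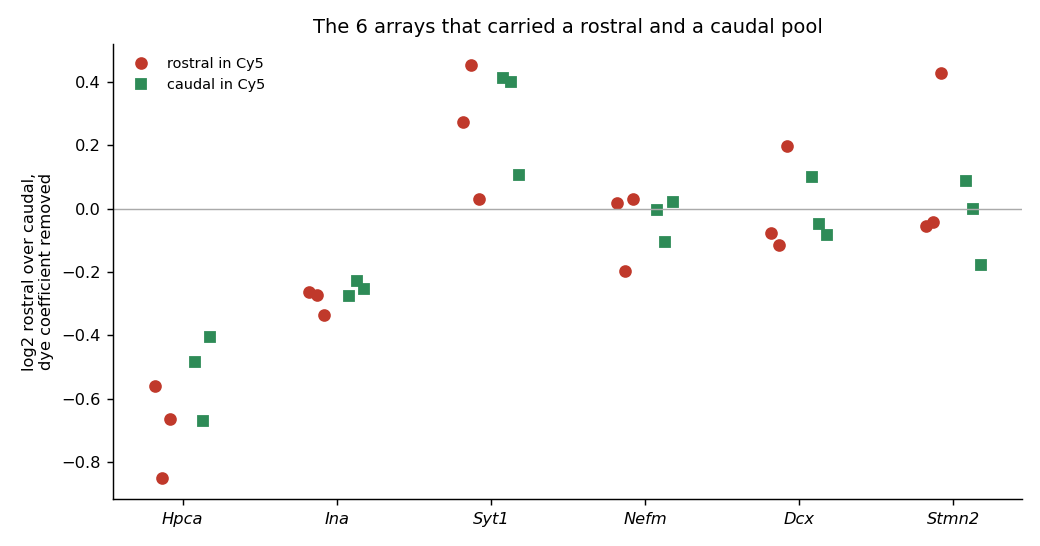
Ratios of 6 of the genes, all but Nefl, on the 6 arrays that carried a rostral and a caudal pool (y axis, log2 rostral over caudal, dye coefficient removed), 1 point per array, with circles for the rostral pool in Cy5 and squares for the caudal pool in Cy5. Hpca and Ina sit below 0 and Syt1 above 0 on 6 of 6 arrays, while Nefm, Dcx and Stmn2 fall on both sides. The arrays are repeat measures of the pools and also went into the pool values.

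Dcx and Stmn2, the microtubule genes of migrating and growing neurons, varied between pools of 1 region more than between regions. Dcx was -0.09, 0.06 and 0.02 rostrally, -0.08, -0.06 and 0.06 in the middle, and 0.14, -0.14 and 0.09 caudally. Stmn2 was 0.01, 0.10 and 0.04 rostrally, -0.15, -0.08 and 0.03 in the middle, and 0.11, -0.15 and 0.08 caudally. For both genes C1 was the highest of the 9 pools and C2 among the 2 lowest, so the caudal pools covered nearly the whole range. Rostral against caudal the log2 difference was -0.03 for Dcx (95% interval -0.24 to 0.18, limma adjusted p = 0.973) and 0.03 for Stmn2 (95% interval -0.17 to 0.23, limma adjusted p = 0.971). Differences of the size seen for Syt1 lie outside both intervals. Stmn2 was above 0 on 6 of 6 arrays joining rostral and middle pools, from 0.00039 to 0.31, but its pools overlapped and the difference of 0.12 had a 95% interval of -0.08 to 0.32.

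The neurofilament chains of the set, Nefm and Nefl, gave no order of the regions. Nefm was -0.10, -0.01 and -0.01 rostrally, 0.05, -0.03 and 0.04 in the middle, and -0.02, -0.01 and 0.10 caudally. These values overlap throughout, and rostral against caudal was -0.06 with a 95% interval of -0.20 to 0.07 (limma adjusted p = 0.908). That interval does not reach the difference of -0.25 found for Ina, the other filament subunit of the set measured on all arrays. Whether the 2 differences themselves differ was not tested. Nefl was -0.94, -0.52 and 0.92 rostrally, 0.56, 0.70 and -1.67 in the middle, and 0.85, 0.46 and -0.36 caudally. Its values were far more scattered than those of the other genes, with a residual SD between arrays of 2.07, above that of 98.9% of features, and a deposited ratio of 5.43 on 1 array. Rostral against caudal was -0.50 ± 0.76 (SE; limma adjusted p = 0.947), and the 95% interval of -2.27 to 1.28 holds every difference named here. The probe therefore does not resolve differences of the size measured for the other genes. Nefl and Nefm are neighbours in the mouse genome, with 1 gene between them, which does not code for protein. Their pool values correlated at -0.09 over the 9 pools. With the scatter of Nefl this value cannot tell whether the 2 genes vary together.

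**Figure D3:**
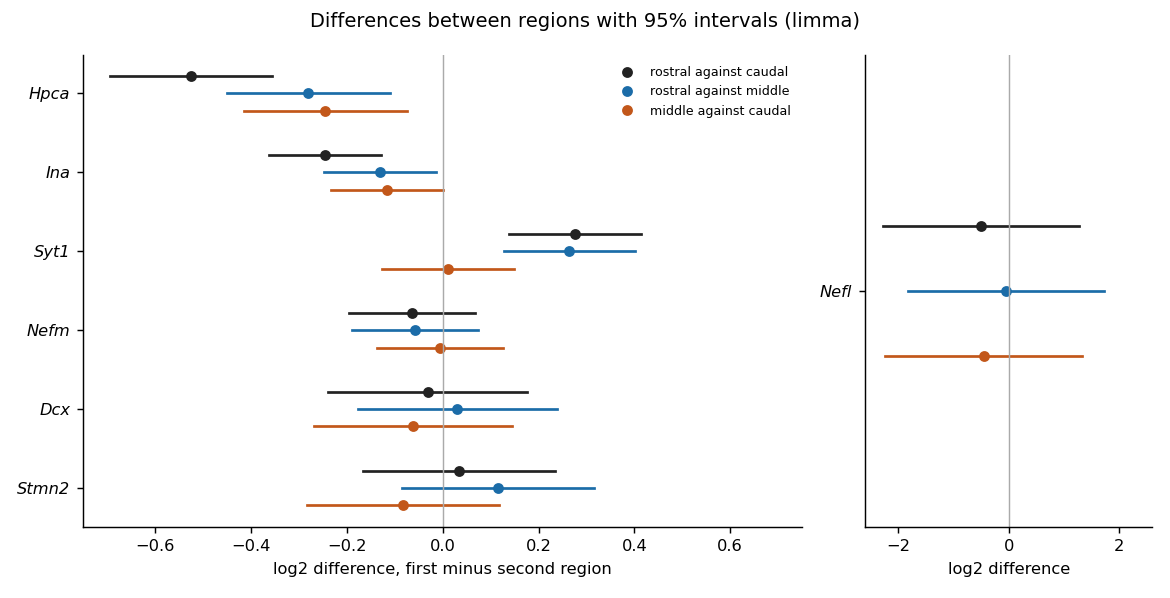
Differences between regions (x axis, log2, first minus second region) with 95% limma intervals for 6 genes, and for Nefl on a wider scale of its own. The rostral against caudal intervals of Hpca (-0.69 to -0.36), Ina (-0.36 to -0.13) and Syt1 (0.14 to 0.41) leave out 0 before any adjustment, and those of Nefm, Dcx, Stmn2 and Nefl hold it.

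Counted over the set, 5 of the 7 genes lay below 0 and 2 above 0 in rostral against caudal, with a median of -0.06 against 0.00 over all features. After adjustment 0 of the 7 passed in limma, where 12 features (0.0648% of those tested) did. At an unadjusted p under 0.05 there were 3 of 7 (Hpca, Ina and Syt1), where 7.9% of all features reached that level. The pools did not overlap for 3 of 7: Hpca and Ina were lower rostrally, as were 5.89% of all features without overlap, and Syt1 was higher rostrally, as were 6.22%. In rostral against middle the genes divided 4 below to 3 above 0, 0 passed in limma (0% of all features did), and the same 3 reached an unadjusted p under 0.05 (5.25% of all features). There too Hpca and Ina were lower rostrally without overlap (7.66% of all features) and Syt1 higher (5.17%). In middle against caudal 6 lay below and 1 above 0, 0 passed in limma (0% of all features), and Hpca alone had an unadjusted p under 0.05 (4.86% of all features), at 0.0111. Hpca and Ina were the 2 whose middle pools lay wholly below the caudal ones, as for 4.38% of all features. The F test over the 3 regions gave an limma adjusted p of 0.197 for Hpca, 0.318 for Syt1 and 0.356 for Ina, and 0.0108% of all features passed it. The genes were chosen with earlier results of these data known, so these counts describe the 7 and show nothing particular to them.

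Seen pool by pool, the 7 genes did not form 1 group. The median Pearson correlation over their 21 pairs was 0.03. Dcx and Stmn2 followed each other most closely (Pearson 0.894, Spearman 0.883), including within regions, where both were low in C2 and high in C1. Hpca and Ina came next (0.871 and 0.833), and Hpca and Syt1 were opposed (-0.847 and -0.683). Each value is over 9 pools that fall into 3 regions and are linked by shared arrays, so the correlations are a description.

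**Figure D4:**
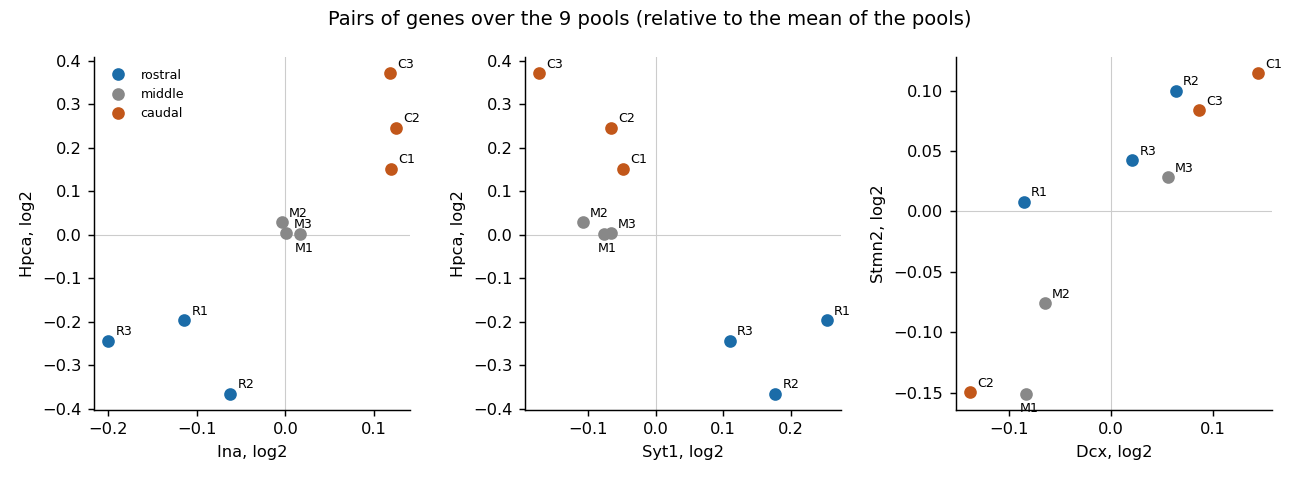
Pool values of gene pairs plotted against each other (both axes log2 relative to the mean of the 9 pools), 1 point per pool, coloured by region. Hpca increases with Ina from rostral to caudal pools, Hpca and Syt1 are opposed, and Dcx follows Stmn2 with pools of every region mixed along the line.

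The gene with the most similar pattern was sought among features with 1 symbol and values on all arrays (10384 for Nefl and 10383 for each of the others). The nearest pattern to Ina over the 9 pools was that of 1 probe of Nr2f1, a nuclear receptor high in caudal cortex (Pearson 0.975), followed by Slc35b4 (0.964). The other Nr2f1 probe was not among the nearest. Its rostral to middle and middle to caudal steps were -0.37 and -0.65, against -0.63 and -0.39 for the nearest probe. The Nr2f1 difference of -1.02 in rostral against caudal was larger than that of Ina, -0.25, on the log2 scale. Hpca was nearest to Lrrc47 (0.983) and Cthrc1 (0.982), and Syt1 to Slc14a2 (0.964) and Cd1d1 (0.963). For Dcx these were Fnbp4 (0.948) and Kpna1 (0.947), for Stmn2 Ptpn21 (0.962) and Npy4r (0.957), for Nefm Msx1 (0.930) and Ap2a1 (0.926), and for Nefl Cx3cr1 (0.968) and Spock2 (0.923). With 9 points and over 10383 candidates, correlations of this size are reached for each of the 7 genes, Nefl with its scatter included.

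Other genes of neuronal maturation lay on both sides of 0 in rostral against caudal. Over all features 49.6% lay below 0 and 7.9% had an unadjusted limma p under 0.05. Of the genes of the neuronal cytoskeleton and growing axons 22 of 25 listed were measured, 12 below and 10 above 0, with a median of -0.04 and 0 past adjustment in limma (2 at an unadjusted p under 0.05). Those with the lowest p were Basp1, a growth cone membrane protein (-0.18 ± 0.06, SE), Mapt, the microtubule protein tau (-0.16 ± 0.06), and Stmn4, a stathmin (0.11 ± 0.05). Of the synaptic vesicle genes 20 of 24 were measured, 10 on each side of 0, with a median of -0.01 and 0 past adjustment in limma (3 at an unadjusted p under 0.05). Other synaptotagmins lay on both sides: Syt11 at 0.32 ± 0.13 and Syt5 at -0.35 ± 0.14, with the vesicle protein Sv2a at -0.24 ± 0.10. Of the neuronal calcium sensors and calcium-dependent kinases 15 of 18 were measured, 8 below and 7 above 0, with 0 past adjustment in limma (2 at an unadjusted p under 0.05). Ncald, a calcium sensor of the same family as Hpca, lay the opposite way at 0.19 ± 0.06, with Camk2a at 0.11 ± 0.05 and the calcium buffer Calb1 at -0.18 ± 0.08. Of the factors of postmitotic cortical neurons 19 of 24 were measured, 10 below and 9 above 0, with a median of -0.02 and 0 past adjustment in limma (6 at an unadjusted p under 0.05). Foxp2, a deep-layer transcription factor, was at 0.41 ± 0.08 (limma adjusted p = 0.173), Bcl11b, of subcerebral projection neurons, at 0.21 ± 0.05 (0.283), and Fezf2, which specifies them, at -0.28 ± 0.05 (0.167). Without centring of the arrays the median of all features moved by -0.07, and the split became 18 below to 4 above for the cytoskeleton, 19 to 1 for the vesicle genes, 11 to 4 for the calcium sensors and 12 to 7 for the neuron factors. The 49.6% holds for the centred ratios. The share of all features below 0 without centring is not given, here or for the lists below.

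Progenitor lists showed no common direction either. All 16 radial glia genes were measured, 5 below and 11 above 0, with a median of 0.03 (11 below and 5 above without centring). At an unadjusted limma p under 0.05, 1 of them (Vim) was lower rostrally and 3 were higher. Vim, the intermediate filament of radial glia, was the 1 listed gene that passed in limma: it was lower rostrally by a log2 difference of -0.51 ± 0.05 (SE, adjusted p = 0.0389). It did not pass without centring, with the Gapdh covariate, with the pool number as a block, on the 6 direct arrays, or when R1, M2, M3, C1, C2 or C3 was left out, since 0 of all features passed in each of these. The 12 intermediate progenitor genes lay 6 on each side (7 below and 5 above without centring), with Insm1 at 0.29, Btg2 at 0.23 and Gadd45g at -0.24. Of these genes 2 were lower and 2 higher rostrally at an unadjusted limma p under 0.05.

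Markers of some other cells that a pool could hold lay mostly lower in the rostral pools, as Hpca and Ina did and Syt1 did not. Of the meningeal genes 10 of 10 measured lay below 0 in rostral against caudal, with a median of -0.12 and Ptgds (-0.66), Dcn (-0.39) and Cxcl12 (-0.27) lowest by p. Their median per pool ranged from -0.11 to -0.0039 rostrally, from -0.05 to 0.01 in the middle and from 0.01 to 0.14 caudally, with the middle range overlapping both others, the caudal one only at its edge. Of the red blood cell genes 4 of 5 lay below 0 with a median of -0.32, and their median per pool ranged from -0.39 to -0.01, from 0.03 to 0.15 and from -0.15 to 0.20. Of the endothelial genes 6 of 7 lay below 0, with a median of -0.07. Cajal-Retzius cell genes lay 5 below and 3 above 0, with Reln at -0.36 ± 0.08, and ventral telencephalon genes 6 on each side, with Gsx2 at -0.53 ± 0.12. Without centring the split was 7 below to 1 above for the former and 11 to 1 for the latter. In these 5 lists 0 genes passed in limma (9 at an unadjusted p under 0.05, all of them lower rostrally). The 9 were 4 of 10 meningeal, 2 of 5 red blood cell, 1 of 8 Cajal-Retzius and 2 of 12 ventral genes. Over all features 7.9% reached that level, in either direction, and 49.6% lay below 0. The part of these cells in the differences of Hpca, Ina and Syt1 was not tested. The 232 Gapdh control spots, which fill many positions of the array, also differed between pools: their medians were -0.15 to -0.04 rostrally, 0.07 to 0.09 in the middle and -0.14 to 0.14 caudally. With this profile as a covariate, rostral against caudal was -0.47 for Hpca, -0.23 for Ina and 0.25 for Syt1 (limma adjusted p = 0.184, 0.284 and 0.318).

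**Figure D5:**
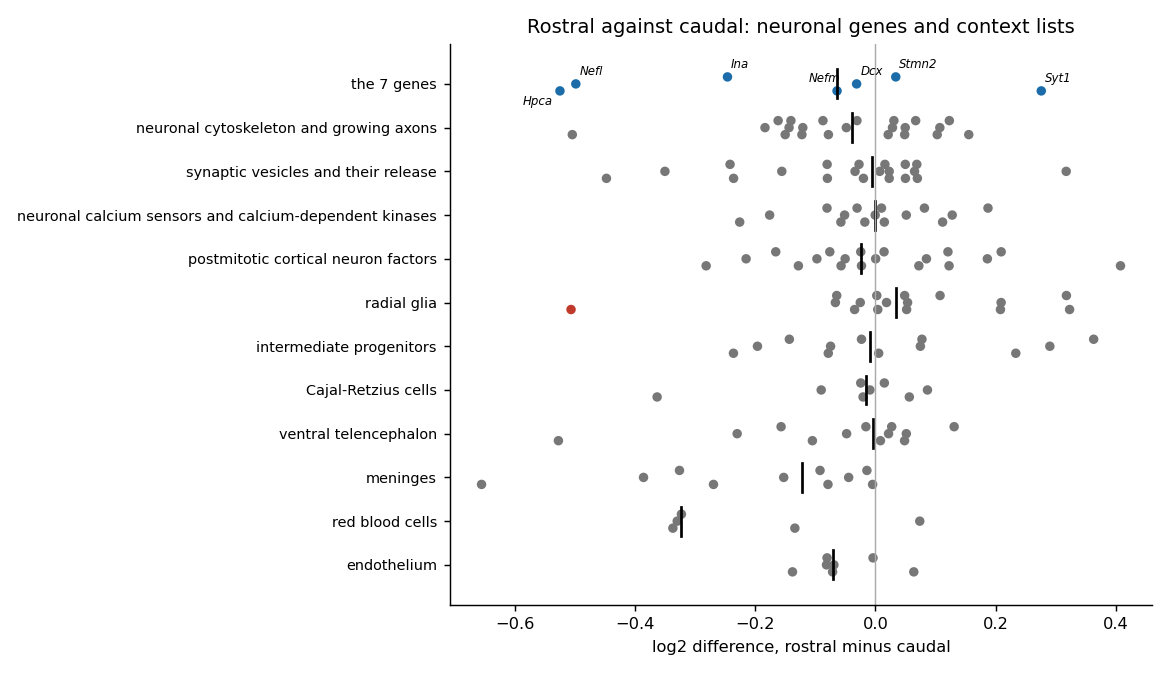
Rostral against caudal differences (x axis, log2, rostral minus caudal) of the 7 genes and of the measured genes of 11 lists, 1 point per gene, with a vertical bar at each median and the 1 gene past an adjusted p of 0.05 (Vim) in red. The neuronal lists centre near 0 (medians -0.04 to -0.00), while meninges (-0.12) and red blood cells (-0.32) lie below it.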

How the data were processed

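The values are log2 ratios of the 2 dyes, 1 for each of 21998 probes on an array, as the authors deposited them. How they were scanned, corrected for background and normalized is not stated in labels or file, and arrays carry no depth. The precision depends both on the number of pools and on the spread between arrays. Capped ratios (1477 values at log2 of 100000) were set to missing, 232 Gapdh control spots were left out of the tests, and each array was centred on its median (medians -0.09 to 0.61), so differences are relative to the median gene. Features with values on at least 12 arrays and at least 2 arrays of each pool were kept (18525). Pool values were fitted by least squares per feature with 9 pool coefficients summing to 0 and a dye coefficient. Regions were compared with limma 3.58.1 (R 4.3.3) on the 9 pool values, with 6 residual and 1.26 prior degrees of freedom and Benjamini-Hochberg adjustment over all features. Residual SDs had a median of 0.256 for arrays and 0.151 for pools. Named genes are all 7 members, up to 3 genes of lowest p per context list, the 2 nearest patterns per member, and 4 genes for the direction of the ratio. A listed gene with several probes is given by 1 probe, that with values on most arrays and then with the lowest residual SD between arrays. This holds for Basp1, Syt11, Bcl11b and Reln, each with 2 probes, whose other probe is not shown. The members and lists were chosen with earlier results of these data known. The functions were tested on simulated data with independent noise for pools and for arrays, which does not speak to pools that share embryos. Alternatives covered centring, scaling, capped values, the filter, the dye term, Gapdh, the pool number as a block, arrays as samples, direct arrays, robust eBayes and leaving out each pool and array.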

Additional observations from a re-analysis of the deposited data

How the results depend on the processing

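Hpca and Ina stayed lower, and Syt1 higher, in rostral against caudal pools under all 38 alternatives run, at -0.61 to -0.45, -0.32 to -0.21 and 0.20 to 0.33. Part of these alternatives left the estimates as they were. Hpca stayed at -0.525, its main value, with either change of the filter, no dye coefficient, the block, arrays as samples or robust eBayes. Ina and Syt1 kept their main values there too. Most others left out 1 pool or array of the same data, so the number of alternatives is no separate support. The limma adjusted p of Hpca ranged from 4.67e-05 to 0.508, of Ina from 8.63e-05 to 0.591 and of Syt1 from 0.000629 to 0.864. Of the 7 probes, 1 passed with only features on all 18 arrays (Hpca, adjusted p = 0.0226, fewer features tested), and 3 passed with arrays as samples, which treats repeated measures of a pool as independent (3 in rostral against middle and 1, Hpca, in middle against caudal).

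Of all features, 12 passed in rostral against caudal. The count was 46 on all 18 arrays, 6 with no filter, 1325 with arrays as samples, and 0 without centring, with the Gapdh covariate, with the replicate block or on the 6 direct arrays. Leaving out a pool or an array gave 0 to 22: 0 without R1, M2, M3, C1, C2 or C3, 1 without R2, 2 without R3 and 4 without M1. With arrays as samples 703 features passed in rostral against middle and 501 in middle against caudal. The F test (2 features) gave 20 on all 18 arrays, 1486 with arrays as samples, 0 without centring, with scaling, with capped ratios kept, with no filter, with the Gapdh covariate or with the block, and 0 to 5 when a pool or array was left out.

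Whether pools of the same number belong together cannot be told from these data. Deviations of pools with the same number correlated at -0.36 to -0.04, and those of other pools at -0.39 to 0.56. No array joined pools of the same number, while pools of other numbers shared arrays, so the layout of the arrays alone can set these ranges apart. With the pool number as a block the limma adjusted p in rostral against caudal was 0.398 for Hpca, 0.572 for Ina and 0.547 for Syt1.

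Signs turned only for differences near 0 and for Nefl. Without centring, which moves the median feature by -0.07 (rostral against caudal), 0.10 (rostral against middle) and -0.17 (middle against caudal), Stmn2 became -0.039 in the first, Nefl 0.038 and Nefm 0.043 in the second and Syt1 -0.16 in the third. In rostral against middle, Ina moved to -0.03. Dcx became -0.017 in rostral against middle with the Gapdh covariate, and Nefl 0.53 in rostral against caudal on its direct arrays. Leaving out a pool or array gave -0.86 to 0.22 for Nefl, -0.12 to 0.022 for Dcx and -0.061 to 0.093 for Stmn2 in rostral against caudal, -0.54 to 0.14 for Nefl and -0.0031 to 0.082 for Dcx in rostral against middle, and -0.021 to 0.040 for Syt1, -0.81 to 0.75 for Nefl and -0.025 to 0.031 for Nefm in middle against caudal. For Nefl these ranges rest on fewer fits. It had a value in 25 alternatives, against 38 for each other gene. Among the pools, a value for Nefl was given only with R1, M3 or C2 left out. The causes of the turned signs were not tested.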
